A study of Mus musculus with 8 samples.

Results

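The endothelial genes of the developing mouse kidney described here are 10 genes that mark the endothelium, the cell layer lining blood vessels: Pecam1, Cdh5, Kdr, Flt1, Tek, Tie1, Emcn, Plvap, Egfl7 and Ehd3. They were found by gene symbol in the deposited expression tables, and all 10 were among the 24151 genes there. The tables hold 8 RNA sequencing libraries of embryonic kidney from the outbred ICR mouse stock, 4 from mothers given chlorpyrifos (CPF) and 4 from mothers given its solvent dimethyl sulfoxide (DMSO), with 1 library of each agent at each of the embryonic stages E12.5 and E14.5 (early) and E16.5 and E18.5 (late). CPF is an organophosphate insecticide, given under the skin at 5 mg per kg each day of gestation from day 7.5 to day 11.5 to mothers mated at 8 weeks of age, and the control mothers received an equal volume of DMSO. Kidneys of all 8 groups were thus taken after dosing had ended, and no source used here gives the number of embryos or litters behind a library. Each value is a TPM, a transcript's level per unit of its length as a share of the library. Where 4 values follow each other, they are in order of stage, earliest first. With 1 library in each group there is no replicate within a stage.

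The kidney's vessels form from endothelial precursors within and around the metanephros. Vascular endothelial growth factor A, made by podocytes and other epithelial cells, acts on its receptor Kdr (VEGFR2), while Flt1 (VEGFR1) binds the same ligand tightly and signals weakly. Angiopoietins act on Tek (TIE2), and Tie1 is its co-receptor without a ligand of high affinity of its own. Cdh5 (VE-cadherin) and Pecam1 hold endothelial cells together, Emcn is a sialomucin of their surface, Plvap builds the diaphragms of fenestrae and caveolae, Egfl7 is a secreted protein of the vessel wall and Ehd3 is an endocytic recycling protein that in kidney marks glomerular endothelium.

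The tables can be read for 6 of the 10 genes. Cdh5, Kdr, Flt1, Tie1, Plvap and Ehd3 each have 1 RefSeq transcript in the tables, and their means ran from 12.7 to 63.5 TPM. Pecam1, Tek, Emcn and Egfl7 have 2, 3, 2 and 4 transcripts there and were at or near 0. This holds beyond endothelium: a mean of 1 TPM or more was reached by 22.7% of the 4777 genes with several transcripts and by 60.8% of the 19374 others, and both transcripts of the housekeeping gene Gapdh stayed at or under 0.926 TPM. Low values of these 4 genes are given as listed and not read as low expression. Kdr and Flt1 are represented by their full-length transcripts, and the soluble form of Flt1 was not analysed here.

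The values of these 4 genes are as follows. All 3 Tek transcripts were listed at 0 in all 8 libraries. Pecam1 was listed at 0 to 0.159 TPM. Emcn stood at 0.348, 1.10, 0.168 and 2.67 TPM (CPF) and at 0.444, 0.204, 0.836 and 1.42 TPM (DMSO), all from 1 of its 2 transcripts. It was highest at E18.5 in both agents, and the agents overlapped. Egfl7 stood at 0.349, 0.0681, 0.833 and 1.07 TPM (CPF) and at 0.245, 0.654, 0.826 and 0.589 TPM (DMSO), from 2 of its 4 transcripts, again with overlapping agents. No fold change of these genes is interpreted. Emcn passed the filter on low values, so its fitted differences are listed where the dependence on processing is described, and only there.

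Egfl7 also carries a microRNA, miR-126a, which is made from the Egfl7 transcript and is abundant in endothelium. Its hairpin lies at chr2:26591357-26591429 on the plus strand of GRCm38.p6, inside Egfl7 (chr2:26581083-26592682), where 9 of 19 Egfl7 transcripts of GENCODE M21 span it and an exon of 1 overlaps it. The mature sequence from RefSeq is shown because the hairpin is a second product of this locus with values above 0 in the tables, with the seed, bases 2 to 8, in capitals.
mmu-miR-126a-3p: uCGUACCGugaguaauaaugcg
The Mir126a precursor stood at 2.80, 0, 1.12 and 10.2 TPM (CPF) and at 5.59, 1.37, 0.934 and 0.842 TPM (DMSO). The hairpin is 73 bases long, and 1 read was estimated to be worth 0.837 to 1.44 TPM there, so these values stand for about 0 to 7 reads each. Like the values of Egfl7 itself, they do not separate the agents. Mir126b, on the opposite strand, was listed at 0 in all 8 libraries.

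The junction gene and the growth factor receptors showed one shape. Cdh5 stood at 46.0, 38.3, 89.5 and 123 TPM (CPF) and at 64.2, 41.9, 60.6 and 44.6 TPM (DMSO). The CPF library was the lower of the pair at E12.5 and E14.5 and the higher at E16.5 and E18.5, where it stood above every DMSO library. Kdr stood at 36.6, 40.5, 75.8 and 115 TPM (CPF) and at 62.5, 36.1, 49.2 and 33.1 TPM (DMSO). In TPM as deposited, its DMSO course ended at the lowest of the 8 values, and its CPF course at the highest. Coding transcripts took 53.3% of TPM in DMSO at E18.5, the lowest share of the 8 libraries. The low rank of Kdr there thus depends on the scaling described below.

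Flt1 stood at 6.39, 5.53, 14.54 and 38.4 TPM (CPF) and at 10.6, 6.20, 9.88 and 10.1 TPM (DMSO). The CPF value at E18.5 was 3.80 times the DMSO value, and at E12.5 it was 0.602 times. Tie1 stood at 15.6, 10.5, 47.9 and 70.0 TPM (CPF) and at 29.4, 17.9, 38.2 and 26.5 TPM (DMSO). Its ratio of CPF to DMSO was below 1 at E12.5 and E14.5 (0.532 and 0.588) and above 1 at E16.5 and E18.5 (1.25 and 2.65).

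**Figure D1:**
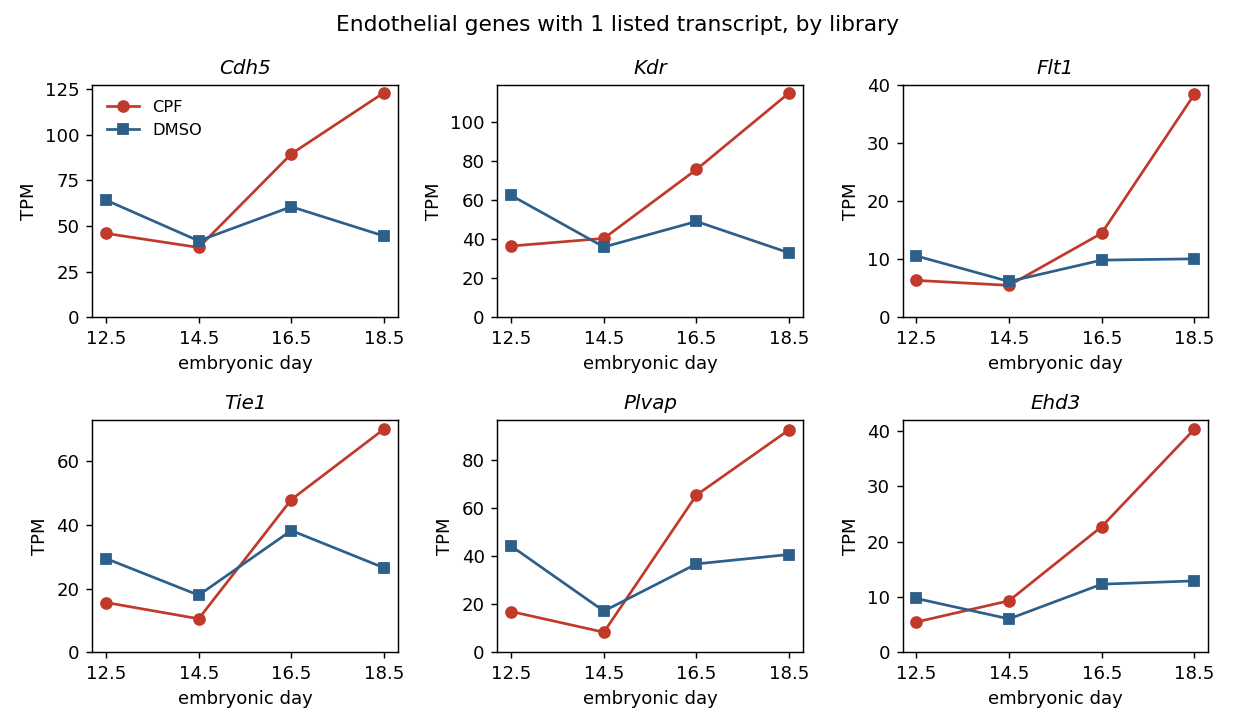
TPM (vertical axes, from 0) by embryonic day (horizontal axes) of the 6 endothelial genes with 1 listed transcript, with 1 point per library, CPF as red circles and DMSO as blue squares. In each panel the CPF library is below DMSO at E12.5 and is the highest of all 8 libraries at E18.5.

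Plvap and Ehd3 separate kinds of renal endothelium. Plvap protein is found in peritubular capillaries and, for a time during development, in glomerular capillaries. Plvap stood at 16.9, 8.32, 65.3 and 92.4 TPM (CPF) and at 44.1, 17.1, 36.7 and 40.6 TPM (DMSO). Of the 6 genes it had the lowest ratios of CPF to DMSO at the early stages, 0.382 (E12.5) and 0.486 (E14.5), and both agents were lowest at E14.5. Ehd3 stood at 5.47, 9.31, 22.7 and 40.3 TPM (CPF) and at 9.72, 6.03, 12.3 and 12.9 TPM (DMSO), so that CPF was below DMSO at E12.5 and above it at the 3 later stages.

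In mean level the 6 genes stood in the order Cdh5 (63.5 TPM), Kdr (56.1), Plvap (40.2), Tie1 (32.0), Ehd3 (14.8) and Flt1 (12.7), with SDs over 8 libraries of 29.3, 27.9, 28.0, 19.7, 11.6 and 10.8 TPM. Neighbours in that order differed by less than the larger of their SDs. Library by library, Cdh5 was above Kdr and Kdr above Plvap in 7 of 8, and Tie1 above Ehd3 in 8 of 8. Plvap was above Tie1 in 5 of 8 libraries, and Ehd3 above Flt1 in 5 of 8. By an estimate from the steps in the low values, the 6 genes rested on 175 (Plvap, CPF E14.5) to 6471 reads (Kdr, CPF E18.5) per library.

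Set side by side by stage, the 6 genes showed a shared pattern. The log2 ratio of CPF to DMSO, here of TPM + 1, had a median over the 6 genes of -0.74 at E12.5, -0.13 at E14.5, 0.58 at E16.5 and 1.51 at E18.5. The same median over all 13677 genes tested was -0.12, 0.03, 0.13 and 0.53, so the 6 genes stood -0.62, -0.16, 0.45 and 0.98 from it. At E12.5 all 6 were below 0, as were 58.7% of all genes, and 1 of 6 (Plvap, -1.34) was lower by more than 2-fold, as were 2.5% of all genes (6.04% were higher). At E14.5 none of the 6 passed 2-fold, against 6.18% of all genes higher and 2.16% lower, nor did any at E16.5, against 7.44% and 3.2%. At E18.5 6 of 6 were higher by more than 2-fold, against 20.4% of all genes (2.02% were lower), with log2 ratios from 1.17 (Plvap) to 1.83 (Flt1). The highest of the 8 libraries was CPF E18.5 for all 6 genes, and for 29.7% of all genes (28.7% with the scaling described next). All 6 were below 0 at E12.5 and above 0 at both late stages, as were 36.1% of all genes. Each stage compares 1 CPF library with 1 DMSO library, so these ratios have no replicate check and no p.

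The size at E18.5 depended on how libraries were scaled. The RNA components Rpph1 and Rmrp took 19.3 to 21.8% of TPM in the CPF libraries and 19.6, 23.6, 31.0 and 41.8% in the DMSO libraries from E12.5 to E18.5, which lowers every other DMSO value. With each library scaled to its coding transcripts, the median of all genes was -0.12, -0.02, -0.03 and 0.16, and that of the 6 genes -0.73, -0.20, 0.38 and 1.06. The direction of each gene at each stage was the same as before. At E18.5 3 of 6 then passed 2-fold (Flt1 1.41, Kdr 1.31 and Ehd3 1.15, against 9.82% of all genes), and at E14.5 Plvap did so downward (-1.04, against 1.37% of all genes). In bulk tissue, a difference in the share of endothelial cells and one in RNA per cell cannot be told apart, in either direction.

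**Figure D2:**
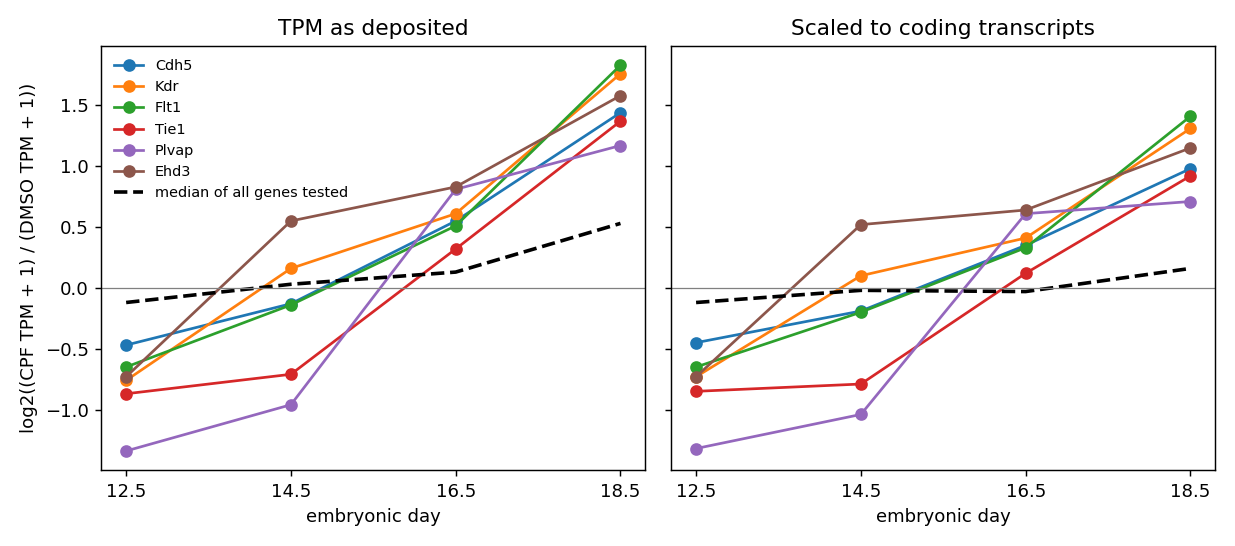
Log2 ratio of CPF to DMSO, as TPM + 1, by embryonic day for the 6 genes (coloured lines) and the median of all genes tested (dashed), with TPM as deposited on the left and after scaling to coding transcripts on the right. All 6 genes lie below 0 at E12.5 and above 0 at E16.5 and E18.5 in both panels.

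Whether the course over embryonic days differed between the agents was asked with limma, with a slope for each agent in 1 fit over the 8 libraries. In CPF kidneys the 6 genes had slopes between 0.27 ± 0.07 (Cdh5) and 0.50 ± 0.16 (Plvap) log2 units per day (estimate ± SE, n = 4 libraries). In DMSO kidneys the slopes lay between -0.11 ± 0.06 (Kdr) and 0.10 ± 0.07 (Ehd3). The CPF minus DMSO slope was 0.40 ± 0.08 for Kdr, 0.32 ± 0.10 for Cdh5, 0.40 ± 0.13 for Flt1, 0.39 ± 0.16 for Tie1, 0.46 ± 0.23 for Plvap and 0.36 ± 0.10 for Ehd3, while the median over all genes was 0.11. Among all genes, 4.48% had a slope difference at least as high as that of Cdh5, the lowest of the 6.

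None of the 6 passed over all genes. The adjusted p from limma (Benjamini-Hochberg over 13677 genes) was 0.132 for Kdr, Cdh5 and Ehd3, 0.133 for Flt1, 0.186 for Tie1 and 0.24 for Plvap. The percentage of all genes called was 0 in each direction, with 3615 genes at an unadjusted p under 0.05. At that unadjusted threshold 5 of 6 endothelial genes had a higher slope in CPF (Plvap did not), as did 24.9% of all genes. That count was 4 with coding scaling, 2 with quantile normalization and 0 without the E18.5 pair, with 1565, 1374 and 906 genes of the table in either direction. With coding scaling the 6 slope differences were 0.24 to 0.39 and their adjusted p from limma 0.391 to 0.525. Without the E18.5 pair they were 0.26 to 0.54, with adjusted p of 0.644 to 0.724.

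**Figure D3:**
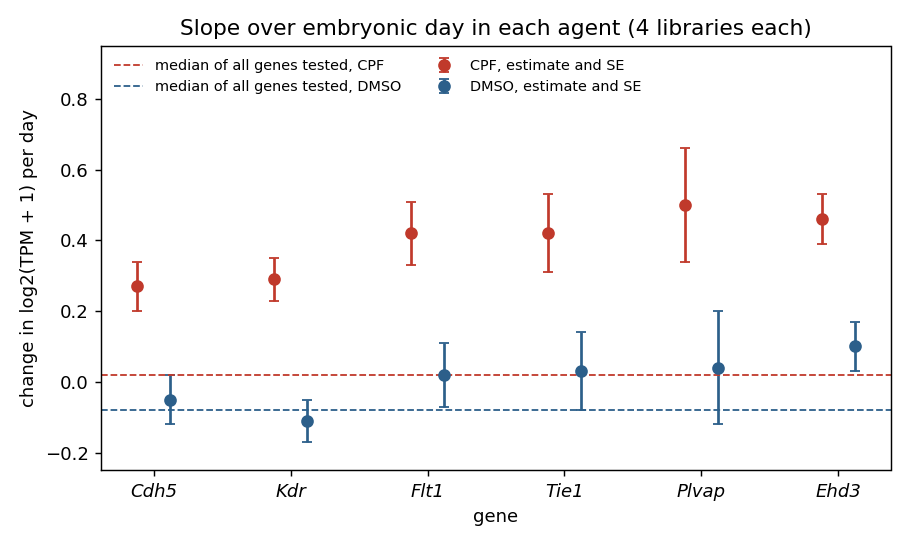
Slope of log2(TPM + 1) per embryonic day (vertical axis) for the 6 genes in CPF (red) and DMSO (blue) kidneys, with SE as bars from a fit of 4 libraries per agent, and the medians of all genes tested as dashed lines. The CPF slopes are 0.27 to 0.50 per day and the DMSO slopes -0.11 to 0.10.

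Averaged over the 4 stages, no endothelial gene differed between CPF and DMSO beyond the spread between stages. The CPF minus DMSO difference, with stage in the fit, was 0.56 ± 0.35 (SE, n = 4 stage pairs) on the log2 scale for Ehd3, 0.44 ± 0.35 for Kdr, 0.39 ± 0.38 for Flt1, 0.35 ± 0.30 for Cdh5, 0.03 ± 0.35 for Tie1 and -0.08 ± 0.43 for Plvap, with a median of 0.15 over all genes. The adjusted p from limma was 0.697 to 0.989. No endothelial gene was called, where 0.154% of all genes were called higher and 0.00731% lower. Tie1 turned to -0.15 with coding scaling, and without the E18.5 pair Cdh5, Flt1 and Tie1 turned to -0.02, -0.09 and -0.42, while Kdr stood at 0.01 and Ehd3 at 0.22. Without the E12.5 pair Kdr stood at 0.85 and Ehd3 at 0.99.

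Between E18.5 and E12.5, with both agents in the fit, the 6 genes differed by 0.36 to 1.52 on the log2 scale, against a median of -0.21 over all genes. Ehd3 differed by 1.52 ± 0.49 (SE, n = 2 libraries a stage, adjusted p = 0.0786 from limma), Flt1 by 1.18 ± 0.53 (0.199), Plvap by 1.14 ± 0.61 (0.292), Tie1 by 0.98 ± 0.50 (0.259), Cdh5 by 0.44 ± 0.42 (0.551) and Kdr by 0.36 ± 0.50 (0.702). None was called, where 4.67% of all genes were called higher and 3.73% lower. Ehd3, the glomerular marker, was called higher with coding scaling (1.79, adjusted p = 0.0226 from limma), with libraries scaled without Rpph1 and Rmrp (1.78, 0.0421), with a stricter filter on low values (1.52, 0.0292) and without the E14.5 pair (1.52, 0.0283). By agent, Ehd3 stood at 12.9 TPM (E18.5) and 9.72 TPM (E12.5) in DMSO, and at 40.3 and 5.47 TPM in CPF. In CPF the other genes were also higher at E18.5 than at E12.5. In DMSO, as deposited, Cdh5 stood at 44.6 TPM (E18.5) and 64.2 TPM (E12.5), and Kdr at 33.1 and 62.5. Flt1 (10.1 and 10.6), Tie1 (26.5 and 29.4) and Plvap (40.6 and 44.1) were also lower at E18.5 there. Rpph1 and Rmrp took 41.8% of TPM in DMSO at E18.5 and 19.6% at E12.5, which lowers these E18.5 values.

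Ratios within a library do not depend on its scaling, and they show how the endothelial genes stood against each other. Kdr stood at 0.743 to 1.06 times Cdh5 over the 8 libraries. Flt1 stood at 0.139, 0.144, 0.162 and 0.312 times Cdh5 in CPF kidneys and at 0.165, 0.148, 0.163 and 0.227 times in DMSO kidneys, so that it was highest at E18.5 in both agents. Ehd3 likewise had its highest ratio to Cdh5 at E18.5, 0.328 in CPF and 0.288 in DMSO, from 0.119 and 0.151 at E12.5. Plvap was at 0.366, 0.217, 0.729 and 0.752 times Cdh5 in CPF and at 0.686, 0.408, 0.605 and 0.911 times in DMSO. Its lowest ratio was at E14.5 in both agents, and at all stages but E16.5 the CPF ratio was below the DMSO ratio. Tie1 to Cdh5 was also lower in CPF than in DMSO at all 4 stages, at 0.339, 0.274, 0.535 and 0.569 against 0.457, 0.426, 0.631 and 0.593. No test was made of these ratios. Over the 8 libraries the 15 pairs among the 6 genes had Pearson r of 0.77 to 0.97 on log2(TPM + 1), a description that includes what libraries share in scaling.

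Promoters of the readable genes are shown because these genes had a common course, and because ETS factors such as Erg and Fli1, which bind a GGAA core, are known regulators of endothelial genes. The RefSeq table of GRCm38.p6 held promoters for 7 of the 10 genes, 4 of them among the 6. The 250 bases before the start site used there are given 5′ to 3′ in the direction of the gene. Matches to AGGAAG, on either strand (CTTCCT), are in capitals. For Kdr and Flt1 the window lies inside the annotated gene, whose 5′ ends are at chr5:75979072 and chr5:147726438.
Kdr (chr5:75978456-75978705, minus strand): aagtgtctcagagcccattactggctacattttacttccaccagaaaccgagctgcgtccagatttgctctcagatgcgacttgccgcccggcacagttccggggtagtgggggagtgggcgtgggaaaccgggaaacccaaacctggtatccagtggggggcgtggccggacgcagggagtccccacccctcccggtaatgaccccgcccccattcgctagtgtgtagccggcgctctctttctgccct
Flt1 (chr5:147726012-147726261, minus strand): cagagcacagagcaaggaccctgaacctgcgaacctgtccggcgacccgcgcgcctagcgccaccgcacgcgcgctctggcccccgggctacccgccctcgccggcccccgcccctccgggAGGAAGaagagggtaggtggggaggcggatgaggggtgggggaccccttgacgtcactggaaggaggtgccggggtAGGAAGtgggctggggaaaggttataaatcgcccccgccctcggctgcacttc
Tie1 (chr4:118489850-118490099, minus strand): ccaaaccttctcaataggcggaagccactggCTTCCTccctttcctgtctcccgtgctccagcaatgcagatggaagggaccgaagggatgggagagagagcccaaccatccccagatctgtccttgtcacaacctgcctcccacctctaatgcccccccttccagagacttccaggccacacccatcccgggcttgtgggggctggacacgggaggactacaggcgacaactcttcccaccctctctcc
Ehd3 (chr17:73804591-73804840, plus strand): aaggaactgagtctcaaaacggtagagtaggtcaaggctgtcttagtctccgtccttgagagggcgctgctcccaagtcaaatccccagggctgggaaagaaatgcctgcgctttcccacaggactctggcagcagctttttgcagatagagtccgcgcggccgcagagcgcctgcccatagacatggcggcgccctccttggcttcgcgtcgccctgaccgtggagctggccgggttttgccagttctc
The match in Tie1 begins at position -219 from the start site and those in Flt1 begin at -129 and -53. Kdr and Ehd3 hold no AGGAAG in this window. The shorter GGAA core was not searched for or marked, and it does occur in the Kdr and Ehd3 windows. Of 32851 promoters in the table, 29.5% held at least 1 match and 6.25% at least 2. A match is a sequence description only. A GATA motif, AGATAA on either strand, was found in none of the promoters of the 7 genes and in 9.99% of all promoters.

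Other endothelial genes gave the same picture more broadly. Of 30 further endothelial genes, called core endothelial genes here, 26 passed the filter on low values. The 4 others, among them Eng and Acvrl1, have several transcripts. Of the 26, 23 were below 0 in the log2 ratio of CPF to DMSO at E12.5 and 26 were above 0 at E18.5 (25 with coding scaling), where 58.7% of all genes were below 0 at E12.5 under both scalings and 82.4% above 0 at E18.5 (62.6% with coding scaling), with medians relative to all genes of -0.27 and 0.83. The CPF minus DMSO slope was above the median of all genes for 25 of 26, with a list median of 0.29 per day, and none was called in the slope test or across stages. Calcrl and Ramp2, the parts of the adrenomedullin receptor, had high means (82.5 and 69.5 TPM), as did the surface protein Mcam (69.4 TPM) and Podxl (82.7 TPM), which podocytes make too. Podxl stood at 20.4, 68.3, 124 and 281 TPM (CPF) and at 27.7, 22.6, 74.1 and 43.2 TPM (DMSO).

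Of these 26 genes 25 were higher at E18.5 than at E12.5 in the fit of both agents, where the median of all genes was -0.21. Of them 3 were called higher, where 4.67% of all genes were called higher. By agent, the 30 listed genes summed to 408 TPM (E12.5) and 1470 TPM (E18.5) in CPF as deposited. In DMSO the sums were 535 and 557 TPM. Single genes went either way there, with Cd93 at 38.2 and 29.3 TPM and Icam2 at 20.1 and 32.1 TPM. Adgrl4, an adhesion receptor of sprouting vessels, rose by 1.91 (adjusted p = 0.0136 from limma), Ptprb, the endothelial phosphatase that acts on Tek, by 1.85 (0.0364), and Gpihbp1, which holds lipoprotein lipase in capillaries, by 1.76 (0.0413). Ptprb stood at 5.23, 7.05, 18.9 and 46.4 TPM (CPF) and at 7.22, 6.95, 12.8 and 13.0 TPM (DMSO). Of 15 genes of glomerular, arteriolar and medullary endothelium, 9 were tested and 2 were called higher at E18.5 (4.67% of all genes were). They were the semaphorin Sema3g (2.43, adjusted p = 0.0237 from limma) and Rsad2, an interferon-induced antiviral gene (1.85, 0.0125). Sema3g read 48.8 TPM in CPF and 8.68 TPM in DMSO at E18.5, and 2.95 to 8.41 TPM in the libraries of the other stages. The members of this list with the highest means were Igfbp3, Plat, Ehd4 and Lpl, at 124, 101, 31.1 and 25.6 TPM.

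Of 20 endothelial transcription factors 17 were tested. Their medians relative to all genes were -0.37, -0.35, 0.14 and 0.42 from E12.5 to E18.5. At E12.5 14 of 17 were below 0, beside 58.7% of all genes, and at E18.5 15 of 17 were above 0, beside 82.4%. The ETS factor Erg stood at 6.64, 6.61, 17.5 and 24.9 TPM (CPF) and at 11.8, 9.02, 12.9 and 10 TPM (DMSO), close in shape to Cdh5. Of the 17, Klf4 and Meox1 were called lower at E18.5 than at E12.5 (2 factors, where 3.73% of all genes were called lower). They fell by 2.05 and 1.30 on the log2 scale (adjusted p = 0.0245 and 0.0345 from limma), and neither is made by endothelium alone. Mecom, Hey1 and Fli1 had the highest means beside Meox1 (129, 36.5 and 35.0 TPM, against 45.6 TPM). Their slope differences were 0.13 ± 0.07, 0.22 ± 0.08 and 0.17 ± 0.08 per day, and no factor was called across stages or in the slope test.

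Of the 25 ligands, co-receptors and partners of these receptors 20 were tested, and the ligand that acts on Kdr and Flt1 could not be read. Vegfa has 9 transcripts in the tables, all listed at 0 in every library, and Angpt1, the activating ligand of Tek, was at or below 0.0156 TPM. Angpt2, the other angiopoietin, stood at 11.2, 21.1, 21.8 and 37.3 TPM (CPF) and at 13.3, 20.7, 23.6 and 16.3 TPM (DMSO), and the agents differed mainly at E18.5. Vegfc, the ligand of lymphatic endothelium, stood at 20.3, 15.2, 19.4 and 15.3 TPM (CPF) and at 24.5, 13.4, 16.2 and 8.51 TPM (DMSO). Nrp1, the VEGF co-receptor, and Cxcl12, Jag1 and Cxcr4 had the highest means (149, 95.5, 61.1 and 50.7 TPM). In this list 14 of 20 were below 0 at E12.5 and 18 of 20 above 0 at E18.5 (13 and 17 with coding scaling), beside 58.7% and 82.4% of all genes. The list's medians stood -0.14 and 0.58 from those of all genes. Angptl1 was called lower at E18.5 than at E12.5, by 1.87 (adjusted p = 0.0167 from limma), 1 of 20 where 3.73% of all genes were called lower. No other member was called in any of the 3 tests.

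**Figure D4:**
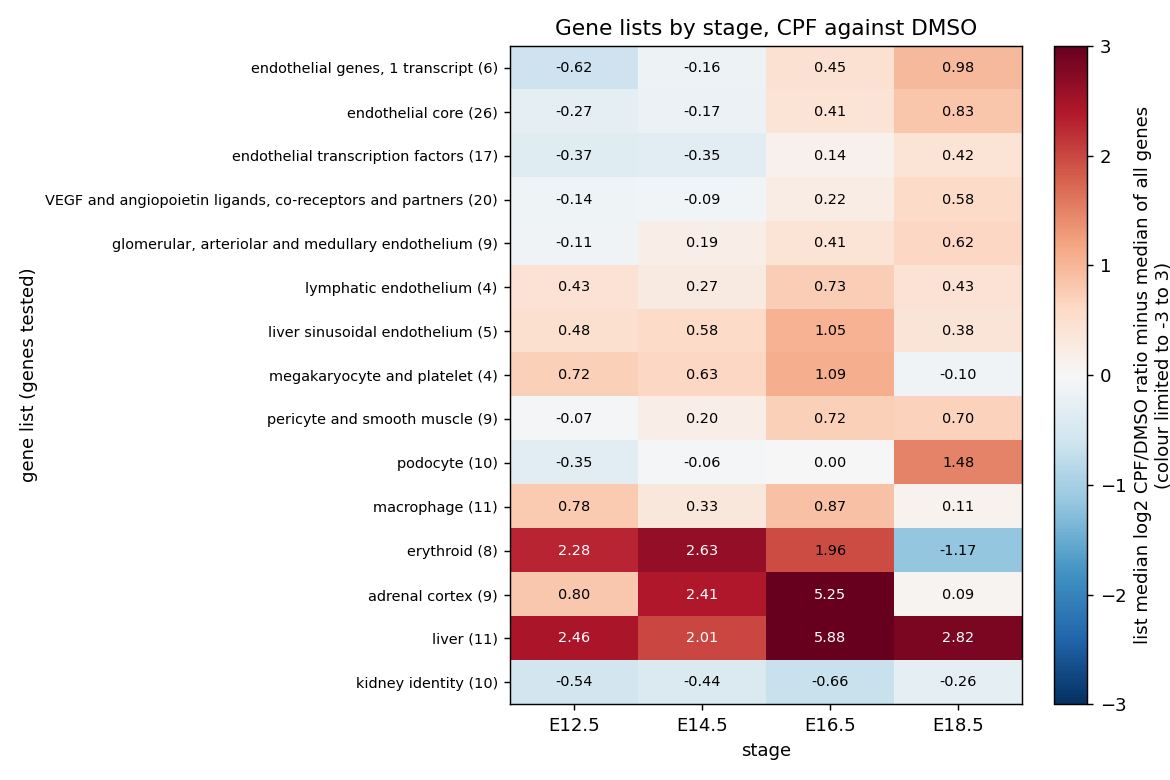
Median log2 ratio of CPF to DMSO of each gene list minus the median of all genes tested, by stage (columns), with the number of genes tested in brackets and colour limited to -3 to 3. The 6 endothelial genes run from -0.62 at E12.5 to 0.98 at E18.5, while liver, adrenal and erythroid genes are higher in CPF from E12.5 to E16.5. At E18.5 liver genes are still higher in CPF (2.82), with adrenal genes at 0.09 and erythroid genes at -1.17.

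Markers of other cells also stood at different levels in the agents. Of the lists for other cells, 2 genes were called across stages, both higher in CPF: the smooth muscle actin Acta2 (1.5 ± 0.22, adjusted p = 0.0222 from limma) and the liver gene Ambp (3.18 ± 0.40, 0.0222). With quantile normalization no gene of the table was called, with 1485 at an unadjusted p under 0.05 in limma. Acta2, a marker of the vessel wall, stood at 74.2, 65.8, 515 and 333 TPM (CPF) and at 28.7, 26.1, 117 and 141 TPM (DMSO), higher in CPF in 4 of 4 stages, the early ones included. Summed over the lists, the CPF and DMSO libraries held 220 to 6240 and 22.8 to 1040 TPM of 13 liver genes, 72.6 to 585 and 50.1 to 70.5 TPM of 10 adrenal cortex genes, 35.0 to 36800 and 70.9 to 8060 TPM of 13 erythroid genes and 150 to 286 and 76.7 to 151 TPM of 12 macrophage genes. The liver and adrenal lists were highest in CPF at E16.5 and the erythroid list in CPF at E12.5, where the 6 endothelial genes were low. At E18.5, where the 6 were high in CPF, liver genes summed to 1130 TPM (CPF) and 45.6 TPM (DMSO). Adrenal genes then stood at 120 and 52.6 TPM and erythroid genes at 35.0 and 70.9 TPM. Markers of liver sinusoidal endothelium summed to 51.0 to 113 TPM in CPF and 32.6 to 64.6 TPM in DMSO, with Clec4g at or below 0.963 TPM, and were above all genes at each stage (0.48, 0.58, 1.05 and 0.38). Megakaryocyte genes (37.6 to 79.6 and 16.3 to 31.9 TPM) and lymphatic genes (41.9 to 92.6 and 35.8 to 71.1 TPM, with Ccl21a listed at 0) had medians above 0 at E12.5 as well, when the endothelial genes were lower. The 4 lymphatic genes tested were split at E12.5, with 2 above 0 (Lyve1, 1.54, and Reln, 0.76) and 2 below (Flt4, -0.88, and Prox1, -0.13). The part of these cells in the endothelial values was not tested.

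Inside the kidney, podocyte genes ran with the endothelial genes at E18.5, where 10 of 10 tested were above 0, as were 82.4% of all genes. Their median exceeded that of all genes by 1.48 there. At E16.5 podocyte genes did not run with them: 5 were above 0 and 5 below, with a median of 0.13, equal to that of all genes. The list of core endothelial genes shares Podxl and Cldn5 with the podocyte list. Pericyte and smooth muscle genes lay at -0.07, 0.20, 0.72 and 0.70. Of 12 genes of kidney identity, such as Pax2 and Wt1, 10 were tested, and their medians stood -0.54, -0.44, -0.66 and -0.26 from that of all genes. All 8 libraries carried them, with sums of 234 to 539 TPM.

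Among 9560 genes whose mean reached 5 TPM, those most like the mean standardised course of the 6 genes over the 8 libraries were Lrp10 (Pearson r = 0.995), Pcdh12 (0.994), Cd93 (0.992), Esam (0.989), Jup (0.988), Gprc5c (0.987), 9530068E07Rik (0.986), Cspg4 (0.984), H2-Q4 (0.984) and Pld3 (0.983). Pcdh12, Cd93 and Esam are known endothelial surface proteins, Jup is plakoglobin of cell junctions, and Cspg4 is the pericyte proteoglycan NG2. Lrp10, which is not an endothelial marker, stood at 20.9, 20.2, 57.6 and 92.7 TPM (CPF) and at 33.3, 21.6, 33.8 and 30.4 TPM (DMSO). An r of at least 0.9 was reached by 4.92% of the genes, and the median r was 0.22. The median r was 0.91 for the 23 core endothelial genes compared and 0.87 for genes of glomerular, arteriolar and medullary endothelium. For endothelial transcription factors it was 0.66 (-0.63 to 0.98). For other cells it was 0.80 for podocyte genes, 0.72 for pericyte and smooth muscle genes, 0.07 for liver genes and -0.43 for erythroid genes. All of these share the libraries and their scaling.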

How the data were processed

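Kidneys of 8 groups (CPF or DMSO at 4 stages) were sequenced, 1 library each. Per the submitters' processing notes, the tools were Trimmomatic (read trimming) and STAR (alignment), with the build mm10. No source used here says how reads were shared among transcripts. The authors deposited TPM for each of 32862 RefSeq transcripts. From these, transcripts were summed per symbol (52 damaged symbols restored from RefSeq identifiers). Depth is not kept in TPM: the step of which most low values were whole multiples (56.1 to 61.1% within 0.02) was taken as 1 read, worth 0.0611 to 0.105 TPM in 1 kb.

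limma 3.58.1 (R 4.3.3), with trend and robust moderation, was run on log2(TPM + 1) for 13677 genes with at least 1 TPM in at least 2 libraries, with Benjamini-Hochberg adjustment and calls under 0.05. On this scale the fold change of a low gene is understated. The terms were stage and agent for CPF against DMSO and E18.5 against E12.5 (3 residual degrees of freedom); agent, day and their product gave slopes (4). With stage in the fit, the p-values measure how CPF minus DMSO differences vary between stages. For slopes they measure how libraries depart from a straight line over days in each agent. None measures the spread between animals. The fits were tested on simulated data.

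Named were the 10 genes and, from each endothelial list, the 4 highest means and called genes, and the 10 genes most like them by Pearson r; for lists of other cells, sums, medians and genes called across stages are given. Per-library values of Erg, Vegfc, Angpt2, Podxl, Ptprb, Sema3g, Lrp10 and Ehd2 were picked for display after they were seen. Genes and lists were chosen with earlier results of these data known. Coordinates and sequences are RefSeq GRCm38.p6, the assembly mm10 names; transcript lengths are from GENCODE M21. Alternatives were other scalings, pseudocounts, filters, moderation, covariates, transcript choice and stages left out.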

Additional observations from a re-analysis of the deposited data

How the results depend on the processing

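The slope differences of the 6 genes stayed positive under all 13 alternatives and none was called in any; 0 genes were called there under each. Across stages 22 genes of the table were called, and 7 with coding scaling, 1 without Rpph1 and Rmrp, 0 with quantile normalization, 83 and 2 with pseudocounts of 0.1 and 5, 0 without the filter, 92 with the stricter filter, 4 without trend and robust moderation, 98, 221 and 51 without the E12.5, E14.5 and E18.5 pairs, 34 without both E14.5 and E16.5, and 0 with stage left out or day as a linear covariate (656 and 1262 at an unadjusted p under 0.05 in limma, against 1485 with quantile normalization and 1653 without the filter). No endothelial gene was among them under any of these. Between E18.5 and E12.5, 1149 genes were called, 687 with a pseudocount of 5, 0 without the filter (3797 unadjusted in limma) and 693 with agent left out. Of the endothelial genes 0 were called, and 1 (Ehd3) with coding scaling, without Rpph1 and Rmrp, with the stricter filter and without the E14.5 pair.

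Across stages Tie1 (0.03) turned to -0.15, -0.14 and -0.11 with coding scaling, without Rpph1 and Rmrp and with quantile normalization, to -0.07 without the E16.5 pair and to -0.42 without E18.5. Plvap (-0.08) turned to 0.34 and 0.21 without the E12.5 and E14.5 pairs, and Cdh5 and Flt1 to -0.02 and -0.09 without E18.5. Emcn (0.16) turned to -0.04 with quantile normalization and -0.05 without E14.5, and its slope difference (0.03) to -0.03, -0.02 and -0.02 with coding scaling, without Rpph1 and Rmrp and with a pseudocount of 0.1, and to -0.05 and -0.14 without E12.5 and E18.5. The cause was not tested. With 1 library per agent and stage, no difference within a stage has a replicate check. The fit across stages pairs CPF with DMSO by stage, and leaving stage out gave the 0 calls above; the labels carry no replicate numbers to pair by.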

Other observations

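The EHD proteins, which reshape membranes in endocytic recycling, include the glomerular marker Ehd3 and 3 close relatives, each with 1 listed transcript. In CPF kidneys all 4 were below DMSO at E12.5 and above it at E16.5 and E18.5, as were 36.1% of all genes. These directions of the 4 genes were the same with coding scaling. At E12.5 the log2 ratios of Ehd1 and Ehd2 were -0.12 and -0.13, where the median of all genes was -0.12. Ehd2, a caveolar member, stood at 26.3, 22.8, 59.2 and 51.6 TPM (CPF) and at 28.8, 26.5, 31.5 and 21.3 TPM (DMSO), in order of stage. Ehd1, which most cells make, had the highest mean (52.2 TPM) and a CPF minus DMSO slope of 0.14 per day, near the median of all genes (0.11), and Ehd3 stood at 0.36. None of the 4 was called in any of the 3 tests, and the difference between Ehd3 and its relatives was not tested.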
